A study of Mus musculus with 5 samples.

Results

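MHC class I presentation and immunoproteasome genes were followed across 5 samples of mouse bone marrow cells. The members are B2m, H2-K1, H2-D1, Tap1, Tap2, Tapbp, Psmb8, Psmb9, Psmb10 and Psme1, and were chosen by gene symbol. Of 12422 probe sets that are not controls, 18 carry exactly 1 of these symbols, and these 18 measure 10 of the 8251 named genes. A further 3 probe sets list a class I chain beside other genes and were not assigned to a member. Per the labels, the cells are progenitors of dendritic cells, positive for FLT3, the growth factor receptor of early blood cells, and for CD11b, an integrin of myeloid cells whose gene is Itgam. The labels give total RNA, 1 array per sample and the sample numbers 1 to 5. They name no treatment, genotype, strain, age, animal or pool, so all samples form 1 group and no conditions were compared. Nothing in the labels says whether the samples came from separate animals, so the spread between them may be in part technical.

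MHC class I molecules display peptides from inside the cell to CD8+ T cells and are found on nearly all nucleated cells. The proteasome cuts proteins into peptides, and the peptide transporter carries these into the endoplasmic reticulum. There a chaperone complex loads them onto a heavy chain paired with beta-2-microglobulin. Interferon-gamma raises most genes of the pathway and exchanges the catalytic proteasome subunits for the immunoproteasome forms, which cells of the haematopoietic lineage also hold without stimulation. Dendritic cells use the pathway to prime CD8+ T cells.

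By the RefSeq gene table (GRCm38.p6), 7 of the 10 members lie on chromosome 17, where the mouse MHC is, and 1 each on chromosomes 2 (B2m), 8 (Psmb10) and 14 (Psme1). Psmb9, Tap1, Psmb8 and Tap2 follow each other there as direct protein-coding neighbours. RefSeq start windows, from 250 bases before to 50 bases after a gene's start, were held for 9 of the 10 members; Tap2 was not among them. The upstream segments of the 3 genes for class I chains are shown because all hold an interferon regulatory factor (IRF) core and an NF-kappaB match within 30 bases. Capitals mark the IRF core, AANNGAAA on either strand, and the NF-kappaB decamer consensus, with overlapping matches merged. H2-K1 is chr17:34000429-34000458 on the minus strand, H2-D1 chr17:35262923-35262952 on the plus strand and B2m chr2:122147546-122147575 on the plus strand (GRCm38.p6, each written 5′ to 3′ on the gene's strand).
H2-K1: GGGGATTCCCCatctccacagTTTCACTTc
H2-D1: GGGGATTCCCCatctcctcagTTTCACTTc
B2m: atgaAACTGAAAatgGGAAAGTCCCtttgt

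The H2-K1 and H2-D1 segments shared 29 of 30 bases, and the difference was A18T, with H2-K1 first and positions counted from the 5′ end of the segment. The IRF core was found in the windows of 4 of 9 members, B2m, H2-D1, H2-K1 and Psme1, and in 23.9% of all 32851 windows of this length. The NF-kappaB consensus was found in 3 of 9 members, B2m, H2-D1 and H2-K1, and in 8.46% of all windows. H2-K1 and H2-D1 are related genes, so their matches are not separate observations. Psmb9 and Tap1 start back to back, 225 bases apart, and are read in opposite directions from the stretch between them. It is shown because both genes had their lowest signal in sample 3. This was so for 8 of 10 members, among them Psmb10 on chromosome 8. Over the 4781 named genes with a mean signal above the array median, the share was 21.5%. A part of this stretch in the signals was not tested. It lies at chr17:34187331-34187555 (GRCm38.p6) and is written on the plus strand, the strand of Tap1. Capitals mark a CCAAT box, CCAAT on either strand, and a CRE core, TGACG on either strand.
Psmb9 to Tap1: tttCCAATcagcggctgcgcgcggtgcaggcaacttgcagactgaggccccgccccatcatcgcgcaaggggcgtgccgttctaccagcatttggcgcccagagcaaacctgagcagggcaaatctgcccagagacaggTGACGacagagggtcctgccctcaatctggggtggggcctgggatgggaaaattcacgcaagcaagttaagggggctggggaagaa

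The windows of Psmb9 and Tap1 overlap, so both hold these matches. The CRE core was found in 5 of 9 members and 20.8% of all windows, and the CCAAT box in 6 of 9 members and 37.4% of all windows. A match describes letters in a window and does not show a bound factor.

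Signals are array intensities rescaled so that each array has a median of 103.4, given as mean ± SD over n = 5 samples. A deviation is the difference on the log2 scale between a gene in 1 sample and its mean over all 5, with signals under 30.04 raised to that floor first. Levels are set only against the same probe set in other samples and against the array median, because probe sets differ in how well they bind. The median only ranks probe sets within an array, so it is no call of presence or absence. Where a gene had several probe sets, the one with the highest mean log2 signal stood for it.

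Of the arrays, sample 1 stood apart in the deposited intensities, with a mean after trimming 2% at each end of 996 against 198 to 199 in the others. The signal ratio of 3′ to 5′ control probe sets, which rises when RNA or its copies are short, ran from 0.896 to 4.52 for Gapdh and from 3.14 to 16.7 for the transferrin receptor, both highest in sample 3, and from 1.08 to 5.20 for actin, highest in sample 4. The gate genes Itgam, at 477 ± 215, and Flt3, at 745 ± 463, exceeded the median on every array.

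Of the 10 members, 9 were above the median on every array, beside 44.5% of all 8251 named genes, and Psmb9 was above it on 4 arrays. The members' median SD of log2 signal over samples was 0.42, beside 0.48 for the 4781 named genes with a mean signal above the median.

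Among the class I chains, B2m, the light chain of all class I molecules, had signals of 4390.2, 8374, 6503, 11436 and 4835 in samples 1 to 5, or 7108 ± 2883. Samples 2 and 4 were high and samples 1 and 5 low, with sample 3 within 0.04 log2 units of the mean. H2-K1, a classical heavy chain that presents peptides to CD8+ T cells, had 4169.6, 3119, 3973, 5561 and 4021, or 4169 ± 880.5. Its SD of 0.30 on the log2 scale was the lowest among the members. H2-D1, the other classical heavy chain among the members, had 3780.5, 3325, 1494, 3032 and 3161, or 2959 ± 866. Sample 3 lay below the other samples, which were close together, at a deviation of -0.92.

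The heavy chain probe sets did not move alike, and 5 of the 6 have names ending in _f_at, the maker's mark for probes shared by members of a gene family. Signals of H2-K1 and H2-D1 may therefore include related class I genes. The second H2-D1 probe set, 97540_f_at, had 2369, 1564, 2069.9, 3413 and 2708 in samples 1 to 5, with the lowest value in sample 2. The third, 97541_f_at, had 383, 873, 1072, 1168 and 502.5, with sample 3 second highest. The low H2-D1 signal in sample 3 was thus seen with 1 of its 3 probe sets. For H2-K1, 97125_f_at had 479, 343, 418.5, 527 and 573, with sample 2 lowest as in the representative probe set, and 97700_at lay below the median on all arrays at 65.1 ± 14.5. A probe set that lists 10 class I genes, H2-K1 and H2-D1 among them, had 1772, 933, 619.8, 978 and 1849, with the lowest value in sample 3.

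**Figure D1:**
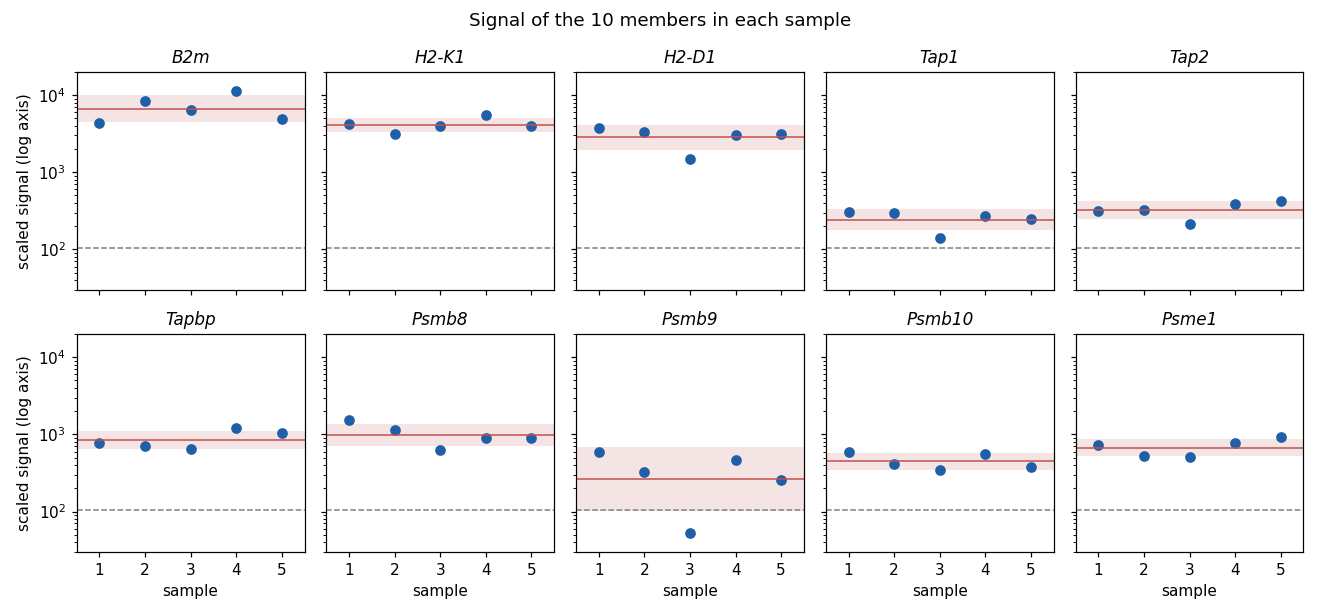
Scaled signal (log axis) of each member's representative probe set in samples 1 to 5. Points are samples, the red line and band are the mean and SD of log2 signal, and the dashed line is the array median of 103.4; Psmb9 in sample 3, at 52.2, is the only point under it.

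The peptide transporter pairs the proteins TAP1 and TAP2 and moves peptides into the endoplasmic reticulum. Tap1 had 305, 300.1, 143, 270.4 and 246 in samples 1 to 5, or 253 ± 66.0. Sample 3 lay apart at a deviation of -0.77, while the other samples lay between 0.01 and 0.32. Tap2 had 318, 322, 215, 386 and 429.7, or 334 ± 81.1, again lowest in sample 3, at -0.60. The second Tap1 probe set, 162278_r_at, had 70.1, 15.6, 55.0, 53.5 and 181, under the median on 4 arrays, and did not have this order.

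Tapbp encodes tapasin, which holds empty class I molecules at the transporter and helps to choose the peptide. Its representative probe set had 775, 699, 638, 1203 and 1041 in samples 1 to 5, or 871 ± 241, with samples 4 and 5 high and sample 3 lowest. The other probe sets of the gene gave different pictures. In 102689_at the signals were 427, 212, 12.8, 145 and 323, so sample 3 was below the floor of 30.04 and at a deviation of -2.47, whereas 162104_f_at was nearly level at 361, 435, 389.6, 346 and 309.5.

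The immunoproteasome subunits Psmb8, Psmb9 and Psmb10 were all lowest in sample 3 and highest in sample 1. The constitutive subunits Psmb5, Psmb6 and Psmb7 were also highest in sample 1. Psmb8, which takes the place of the chymotrypsin-like subunit Psmb5, had 1535, 1129.7, 635, 901 and 899.6 in samples 1 to 5, or 1020.2 ± 337. Psmb9, which takes the place of Psmb6, had 598, 321, 52.2, 468 and 257, or 339 ± 208. Its highest signal was 11.5 times its lowest, the widest range among the members, and its SD of 1.38 on the log2 scale exceeded that of 98.3% of the 4781 named genes with a mean above the median. Both measures depend on the value of 52.2 in sample 3, under the array median of 103.4, and on 1 probe set. Psmb10, which takes the place of the trypsin-like subunit Psmb7, had 595, 412, 344, 561 and 378, or 458 ± 113. Samples 1 and 4 lay above the other samples.

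Each immunoproteasome gene was also set against the constitutive subunit it replaces, as the log2 ratio within an array minus the mean of that ratio over the samples. The ratio of Psmb9 to Psmb6 was 0.77, 0.13, -1.95, 1.03 and 0.01 in samples 1 to 5, so Psmb9 was low in sample 3 beside its counterpart as well. That of Psmb10 to Psmb7 was 0.16, 0.01, -0.41, 0.62 and -0.38, with samples 3 and 5 low and nearly equal. That of Psmb8 to Psmb5 was -0.43, 0.21, -0.24, 0.68 and -0.22, with sample 1 lowest, where Psmb5 was highest at 1556. The 3 ratios shared a highest value in sample 4. There Psmb5 and Psmb7 had their lowest signals, at deviations of -0.79 and -0.29, and Psmb6 was at -0.19. Psmb9 and Psmb10 were above their own means in sample 4, at 0.84 and 0.33, but Psmb8 was below, at -0.12. A ratio of this kind shows unequal change of probe sets and not the share of immunoproteasomes in the cells.

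Psme1 encodes the alpha subunit of the PA28 activator, which opens the proteasome core and is induced by interferon-gamma. It had 736, 520.1, 516, 763 and 923 in samples 1 to 5, or 692 ± 174. Samples 2 and 3 were low and nearly equal, at deviations of -0.37 and -0.38, and sample 5 was highest. Its second probe set, 161293_r_at, was below the median on all arrays at 14.4 ± 15.6.

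**Figure D2:**
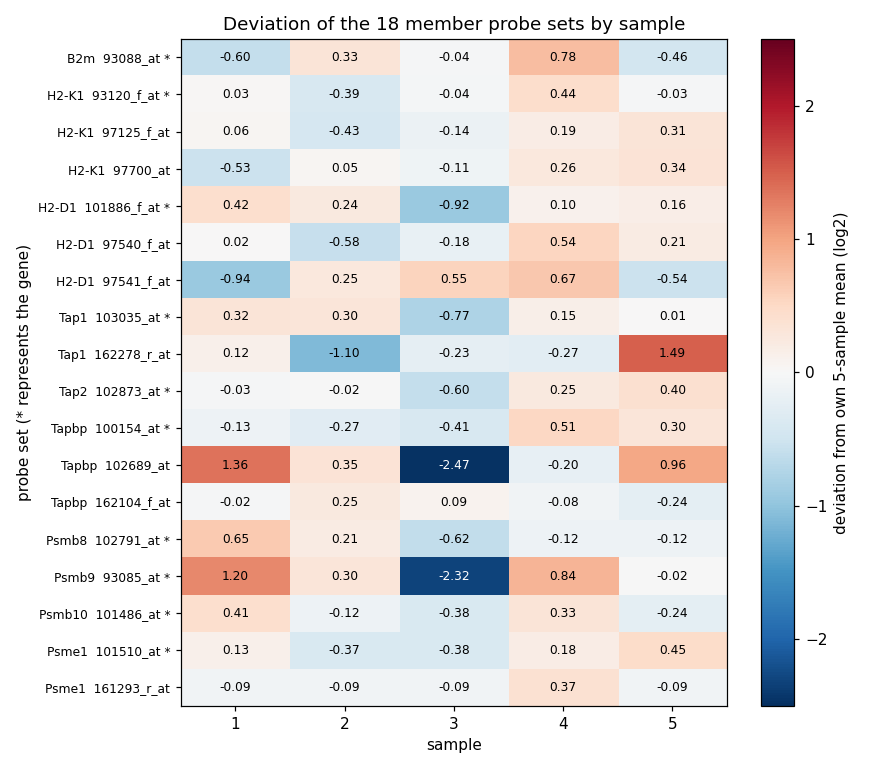
Deviation (log2, colour and printed value) of each of the 18 member probe sets, in rows, from its own mean over samples 1 to 5, in columns; asterisks mark the probe set that stands for its gene. The column of sample 3 is mostly negative, with -2.32 for Psmb9 and -2.47 for a Tapbp probe set, and 97541_f_at of H2-D1 is positive there at 0.55.

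Sample by sample, the members lay below their means in sample 3, though B2m and H2-K1 only slightly, both at -0.04. All 10 had a negative deviation there, from -2.32 to -0.04 with a median of -0.50, beside 50.7% of the 4781 named genes and a median of -0.01. Of the 10 members, 8 had their lowest signal in sample 3, beside 21.5% of those genes (a tie at the floor counted for no sample), and 7 under quantile normalization or scaling to a trimmed mean, where Psme1 dropped out; the exceptions at the median scaling were B2m, lowest in sample 1, and H2-K1, lowest in sample 2. Earlier results of these data already showed class I genes low in sample 3, so these counts describe members and are no independent support. Counted by probe set, 9 of the 15 member probe sets whose mean exceeded the median were lowest in sample 3. Without sample 1, which stood apart in intensity, the count by gene was again 8 of 10.

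In sample 4 the members' median deviation was 0.29, beside 0.19 over the same named genes, and 3 of 10 members were highest there, beside 28.5% of named genes; 2 were with scaling to a trimmed mean and 1 under quantile normalization. In sample 1 the median was 0.22 beside -0.04, and 5 of 10 were highest there, beside 21.7%; the median fell to 0.08 without sample 3 and to 0.04 with every probe set on its own. The medians in samples 2 and 5 were 0.10 and -0.01, and both changed sign under other settings.

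Some other measures were also at an extreme in sample 3. It had the highest 3′ to 5′ ratio of the Gapdh and transferrin receptor controls, at 4.52 and 16.7. Sample 4 came second in both, at 3.42 and 8.63. The actin ratio was 4.15 in sample 3 and highest in sample 4, at 5.20. The members' median deviation was -0.50 in sample 3 and 0.29 in sample 4. The gate gene Itgam had 789, 546, 223, 343 and 486 in samples 1 to 5, lowest in sample 3, and Flt3 had 571, 1212, 353, 1268 and 318, with samples 3 and 5 low. Of the 4 gate and progenitor genes, 2 were lowest in sample 3, Itgam and Cd34, while Kit was at 199 there, within its range of 145 to 222 over the samples. The summed signal of the 4 genes, most of it from Flt3 and Itgam, was 855 in sample 3 and from 1126 to 2175 in the others. The sum of 6 measured B cell markers was 242 against 444 to 710.1, and that of 4 measured erythroid markers 103 against 291 to 420.03; 0 of 6 and 0 of 4 of these were above the median on all arrays, and none was listed at 0. All sums use signals before the floor was set. Of the erythroid genes, Klf1 was at 30.7 in sample 3 and 30.2 in sample 5, and Hba-a1 at 45.6 in sample 3 and 47.8 in sample 1. Epor and Alas2 were under the floor of 30.04 in sample 3 and in other samples. The sum of 8 neutrophil markers, 122433 in sample 3, lay inside the range of the others, 64331 to 251686, and so did the sum of 9 T and NK cell markers, 342 against 197 to 529. By gene, 6 of 8 neutrophil markers were below their own mean in sample 3, beside 50.7% of the 4781 named genes. Their median deviation there was -0.41, and 0 of 8 were lowest there, beside 21.5%. Above the median on all arrays were 8 of 8, beside 44.5% of all 8251 named genes. The sums of 8 mature dendritic cell markers, 684 against 680.05 to 983, and of 8 stromal and endothelial markers, 827 against 822 to 1381, were second lowest in sample 3; 1 of 8 markers in each list was above the median on all arrays. The part of these measures in the members' low signal was not tested. In bulk samples, fewer cells of a type and less RNA per cell cannot be told apart.

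**Figure D3:**
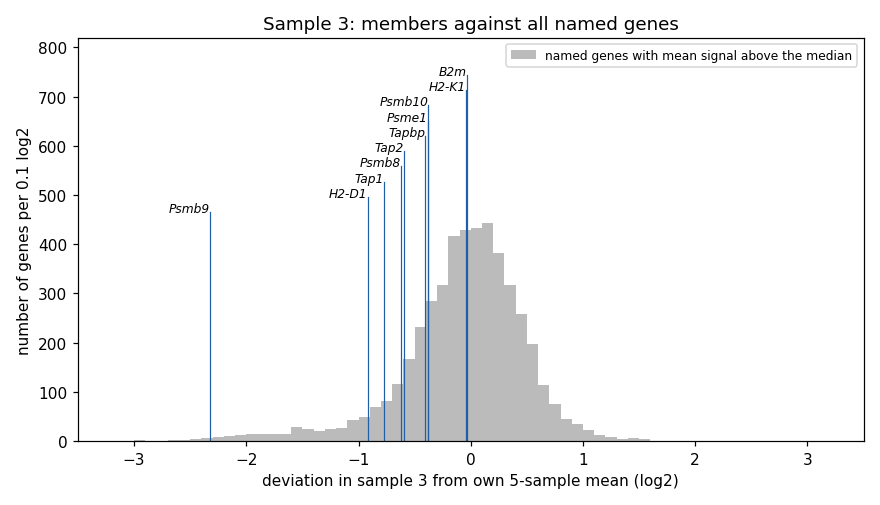
Deviation in sample 3 from the own 5-sample mean (log2, horizontal axis) for the 4781 named genes with a mean signal above the median (grey histogram, genes per 0.1 log2) and for the 10 members (labelled blue lines). Psmb9 at -2.32 lies in the lower tail, while B2m and H2-K1, both at -0.04, lie at the centre.

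The position within the whole distribution differed between members. Of the 4781 named genes, 0.209% had a lower deviation in sample 3 than Psmb9, 6.30% lower than H2-D1 and 8.47% lower than Tap1. For Psmb8 and Tap2 the shares were 11.4% and 12.3%, and for Tapbp, Psme1 and Psmb10 they were 20.04%, 21.3% and 21.7%. Deviations of the size seen in the last 3 were thus common on this array. By Dixon's ratio at 95%, 2 of 10 members, H2-D1 and Tap1, had an outlying sample, beside 5.96% of these named genes. Both calls are for the representative probe set, and the other probe sets of these genes were not lowest in sample 3.

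Of the constitutive proteasome and its partners, 17 of 18 listed genes were measured. Of these, 17 of 17 were above the median on all arrays, beside 44.5% of all 8251 named genes. Their median deviation in sample 1 was 0.25, beside 0.22 for the members. In sample 3 that of the partners was -0.03. There 10 of 17 were below their own mean, beside 50.7% of the 4781 named genes with a mean above the median. Lowest in sample 3 were 2 of 17, Psmb6 and Psmb3, beside 21.5% of those genes. The same shares apply to the lists that follow. Psmb6 had 629.5 ± 138, Psmb7 944 ± 138 and Psmb5 812 ± 439.7. Pomp, the proteasome assembly chaperone, varied little between samples, at 1051 ± 88.6. Psme3, which encodes the nuclear relative of the PA28 subunits, had 401 ± 185, with samples 2 and 4 low.

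Of the peptide loading and trimming genes, 9 of 12 were measured and 5 were above the median on all arrays. For the 6 with a mean above the median, the median deviation in sample 3 was 0.27 and 0 of 6 were lowest there. Pdia3, the thiol oxidoreductase of the loading complex, had 985, 445, 1840.5, 2277 and 1920.1 in samples 1 to 5, so sample 2 was low and sample 3 among the high ones. Canx, the chaperone of newly made heavy chains, had 211 ± 37.1. Calr, the lectin chaperone calreticulin, lay below the median on all arrays at 43.3 ± 18.5. Npepps, a cytosolic aminopeptidase, had 1400.3 ± 316.

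Of the other class I-like genes, 12 of 20 were measured and 4 were above the median on all arrays. H2-Q4, a class I gene of the Q region, had 1755, 895, 269, 438.5 and 1039 in samples 1 to 5, lowest in sample 3 at a deviation of -1.42. H2-Bl, another class I gene of the MHC, had 638, 479.7, 328, 492.5 and 425.5, lowest in sample 3 too. The probe sets of both have names ending in _f_at. H2-M3, which presents formylated peptides, had 114, 261, 238, 153 and 152 and was not low in sample 3. The median deviation of the 7 such genes with a mean above the median was 0.03 in sample 3.

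Of the regulators of class I genes, 12 of 18 were measured and 5 were above the median on all arrays. For the 10 with a mean above the median, the median deviation in sample 3 was -0.36. It was negative for 8 of 10, beside 50.7% of the 4781 named genes with such a mean. Lowest in sample 3 were 3 of 10, beside 21.5% of those genes: Ifngr2, Jak1 and Rela. Rfxank was under the floor in both sample 3 and sample 4. Rela, the NF-kappaB subunit p65, had 1000.3, 630.4, 463.5, 932 and 1223 in samples 1 to 5. Ifngr1 and Ifngr2 encode the interferon-gamma receptor chains; Ifngr1 had 591 ± 207, and Ifngr2 113 ± 52.2 with samples 3 and 5 under the median. Irf1, an interferon-induced activator of several class I pathway genes, had 351, 183, 201, 382 and 301, low in samples 2 and 3. Irf8 had 82.6, 368, 350.3, 360.3 and 208, low in sample 1 and not in sample 3.

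Of the 9 measured genes of the interferon-induced list, 0 were above the median on all arrays, beside 44.5% of all 8251 named genes. Above it on no array were 6 of 9, beside 2207 of the 8251. A mean above the median was seen for 0 of 9, beside 4781 of the 8251. Irf1 and Psme1, called interferon-induced above, belong to other lists and exceeded the median on every array. Isg15 had 103.2 ± 32.8, just under the median of 103.4, and exceeded it on 2 arrays. Mx1 had 52.3 ± 22.01. The summed signal of the 9 genes was 579 in sample 3, inside the range of the other samples, 271 to 635.

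**Figure D4:**
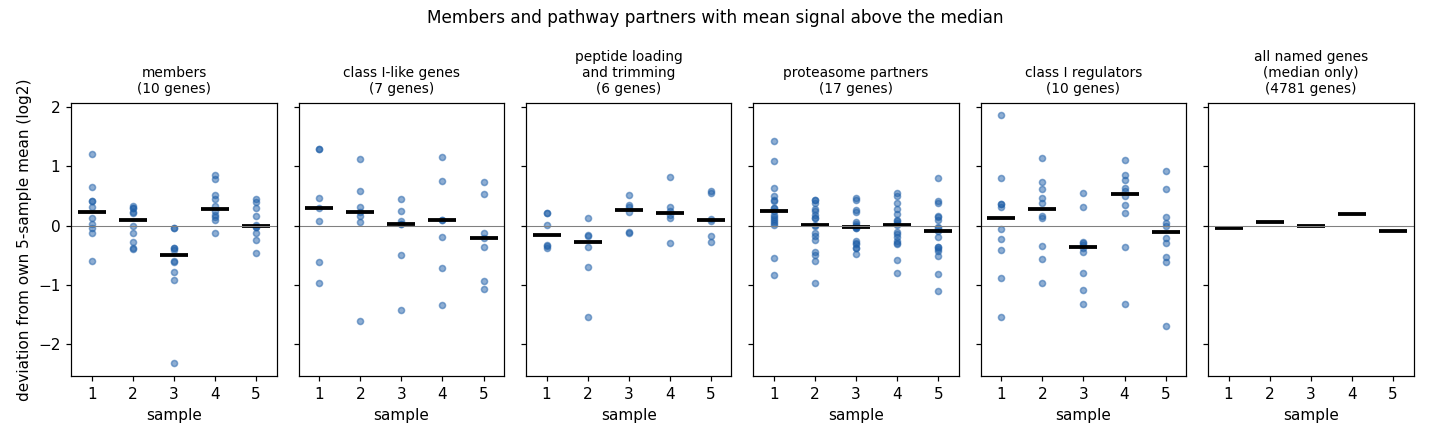
Deviation from the own 5-sample mean (log2, vertical axis) in samples 1 to 5 for genes with a mean signal above the median; points are genes, black bars are list medians, and the last panel gives the median of 4781 named genes. The bar of sample 3 is at -0.50 for the members, -0.36 for class I regulators, -0.03 for proteasome partners and 0.27 for peptide loading and trimming genes.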

How the data were processed

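Each of the 5 samples of total RNA has 1 single-colour array. The deposited values are intensities on a linear scale for 12488 probe sets; the software, scaling step and any detection call are not given in the sources used here, and the number of arrays limits the precision. The 66 control probe sets were left out, arrays were brought to the same median, 103.4, the 25th percentile of all scaled values, 30.04, was set as a floor, and log2 was taken. The platform annotation gave 10833 probe sets 1 symbol, 396 several and 1193 none. No test between conditions was run, since the labels give 1 group. Lists are described by counts and medians beside all named genes. Members and lists were chosen with earlier results of these data known. Named are the members, listed partners, and the 5 genes whose deviations had the smallest mean absolute difference from the members' median. Outlying samples were sought with Dixon's ratio. Alternatives covered scaling, floor, probe-set rule, limit and each sample left out. The steps were checked on simulated data. Calculations used Python 3.11.15, numpy 2.4.6 and pandas 2.3.3.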

Additional observations from a re-analysis of the deposited data

Results flagged for a closer look

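Dixon's ratio, the gap between an extreme sample and its neighbour over the whole range of log2 signal, exceeded the 95% critical value of 0.71 for 5 of 50 members and pathway genes with a mean above the median, beside 5.96% of the 4781 named genes with such a mean; chance gives about 1 in 20. H2-D1 had a ratio of 0.762 and Tap1 of 0.715, both with sample 3 low in the representative probe set. The other probe sets of these 2 genes were not lowest in sample 3. H2-M2, a class I gene of the M region, had 0.74 and Psma1, a subunit of the outer proteasome ring, 0.743, both with sample 5 low. Psmb2, a constitutive proteasome subunit, had 0.723 with sample 1 high. Psmb9, with the widest range among the members, had 0.654, under the critical value.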

How the results depend on the processing

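The count of members above the limit on all arrays stayed between 7 of 10, for a limit at the 75th percentile, and 10 of 10, without sample 3. The median SD ran from 0.34, without sample 3, to 0.46. The members' median deviation in sample 3 was negative under every alternative run, from -0.52 to -0.30, the latter with every probe set on its own. The count lowest in sample 3 was 7 of 10 under quantile normalization and under scaling to a trimmed mean, 8 or 9 of 10 with another sample left out, and 9 of 18 with every probe set on its own, a smaller share; 161293_r_at of Psme1 was under the floor in sample 3 and in 3 others, a tie that counted for none. The median deviation changed sign under 2 of 9 alternatives in sample 2 and 7 of 9 in sample 5; that in sample 4 was 0.11 with scaling to a trimmed mean, and that in sample 1 ran from 0.04 to 0.31. Levels stayed within 1 SD in 85 of 90 cases; the others came from averaging all probe sets of H2-K1, H2-D1, Tap1, Tapbp and Psme1. No paired analysis was possible because the labels give 1 group.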

Other observations

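The 5 other named genes with a mean signal above the median whose deviations over the 5 samples were nearest to the members' median were Guk1, Enoph1, Basp1, Cdkn2d and Man2b1, with a mean absolute difference of 0.03 to 0.06 log2 units. Guk1, which encodes guanylate kinase, had 245, 223, 143, 262 and 211 in samples 1 to 5. Man2b1, a lysosomal mannosidase gene, had 2354, 1917, 1309, 2265 and 1972. They were ranked among 4771 genes over 5 samples, so close profiles can arise by number alone, and nothing about shared function or control is drawn from them.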
